A study of Arabidopsis thaliana with 12 samples.

Results

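The genes described here are those whose response to dexamethasone was not the same after 24 h as after 6 h, in callus of *Arabidopsis thaliana* that carries 35S:LFY-GR. All 8 libraries made at these time points were used out of the 12 of the series, and the 4 libraries at 1 h were not used in the main test. For each gene the response is the log2 ratio of dexamethasone to mock at one time point, and the difference is the response at 24 h minus the response at 6 h. Of the 37336 genes counted, 20684 had enough reads to be tested, and 1228 of these, or 5.94%, had a difference past an adjusted *p* of 0.01 (edgeR's quasi-likelihood test with Benjamini-Hochberg adjustment). These are called genes below, and each of them had a larger, a smaller or an opposite response at 24 h.

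All plants were of the cultivar L.er, were otherwise wild type and carried the 35S:LFY-GR transgene, in mock as well as in dexamethasone libraries. Roots were taken from seedlings 3 weeks old and kept for 5 days on callus inducing medium (CIM), with mock or dexamethasone during the final 6 h or 24 h. By the methods of the study the incubation ended at the same age for all explants, so the 2 time points differ in when treatment began. Each of the 4 groups had 2 biological replicates, A and B. The 35S promoter drives the fusion protein in most cells, whether or not *LFY* is normally on in them. No library came from plants without the transgene, so responses to dexamethasone as such cannot be told apart from responses to LFY-GR.

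LEAFY (LFY) is a plant transcription factor that sets young meristems on the path to flowers, in part by switching on *APETALA1* (*AP1*). Joined to the steroid binding part of the glucocorticoid receptor (GR) it stays in the cytoplasm until a steroid such as dexamethasone is given, after which it enters the nucleus. Genes bound by LFY can respond early, and genes downstream of those respond later. Callus on CIM grows from root tissue in response to auxin and cytokinin by a route that shares regulators with lateral root formation.

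Between 51894841 and 66789371 reads were counted on genes in each 6 h library and between 18511462 and 25879110 in each 24 h library. Relative to counting noise, the 6 h mock replicates stood apart from the other pairs. The chi-square per degree of freedom was 36.7 for this pair, against 2.65 to 6.73 for the others. On the log2 scale, the root mean square difference between replicates was 0.426 in 6 h mock and 0.198 in 6 h dexamethasone. It was 0.48 in 24 h mock and 0.509 in 24 h dexamethasone. Of 17832 genes that averaged 50 reads or more, 192 differed at least 2-fold between the 6 h mock libraries, 190 of them lower in B. Between the 6 h dexamethasone libraries 0 did. The 190 genes included 31 chloroplast genes and had a median length of 1150 bases, against 2460 bases over all genes with as many reads. Of the 190, 1 was called (0.526%, against 5.94% of all genes tested). The part of this spread in single results was not tested. Without the 6 h mock library A 3585 genes were called and without B 2388, while leaving out 1 of the other 6 libraries gave between 613 and 695. In callus, 8 of 8 callus marker genes were tested and summed to between 636 and 669 CPM (counts scaled to a fixed library size after TMM normalisation) at 6 h, 778 and 749 CPM in 24 h mock and 649 and 616 CPM in 24 h dexamethasone. Of these 8, *LBD16*, *LBD29* and *WOX5* were called, each with a lower response at 24 h. Over all genes tested, 5.94% were called and 3.89% were called lower. *PLT1*, *PLT2*, *SCR*, *SHR* and *WOX11* were not called and had differences above 0, of 0.46, 0.26, 0.17, 0.09 and 0.06. Markers of differentiated root summed to between 101 and 109 CPM at 6 h and between 69.5 and 74.5 CPM at 24 h. Those of shoot and leaf summed to between 17.1 and 26.2 CPM. In each of these sets 3 genes were tested and 0 were called. Markers of flower organs summed to between 11.9 and 22.1 CPM, with 0 of the 1 tested called. That 1 was *PI*, at 11.7 to 21.7 CPM, while *AP3*, *AG* and *SEP3* had at most 16 reads in any library. In whole callus, fewer cells of a type and less RNA per cell cannot be told apart.

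*LFY* itself, counted together with the transgene, gave 309 and 418 CPM in the 6 h mock libraries and 272 and 263 CPM in the 6 h dexamethasone libraries. At 24 h it gave 612 and 554 CPM in mock and 942 and 822 CPM in dexamethasone. Its level was lower with dexamethasone in both replicates at 6 h and higher in both at 24 h, without overlap. The response was −0.44 at 6 h, where it was not called (edgeR adjusted *p* = 0.144), and 0.60 at 24 h, where it was. The difference was 1.04 (standard error 0.18, edgeR adjusted *p* = 0.003), and it was not called with all 12 libraries in 1 fit. Without any 1 of the other 6 libraries that difference was no longer called, with an adjusted *p* of at most 0.0356, and without 6 h mock A or B it was called, at 1.24 and 0.80. *ACT7*, an actin gene used as a control in the study, had a difference of 0.02 (standard error 0.12, adjusted *p* = 0.93).

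The response was higher at 24 h than at 6 h in 424 of the called genes (2.05% of those tested) and lower in 804 (3.89%). Few genes had responded at 6 h. In the same fit, 41 genes (0.198% of those tested) passed the threshold for the response at 6 h, 38 up and 3 down, against 1820 (8.8%) at 24 h, of which 755 rose and 1065 fell. Of the 1228 called genes, 1094 had a called response at 24 h, 27 at 6 h, 24 at both and 131 at neither. The absolute difference had a median of 1.11 on the log2 scale over the called genes and of 0.235 over all genes tested. It was at least 1 in 715 of the called genes and at least 2 in 183, and the smallest that was called was 0.445. Without 6 h mock A the response at 6 h was called in 2841 genes and without B in 368, and without any 1 of the others in between 4 and 14.

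The called genes were sorted by the sizes of their 2 responses, with responses of opposite sign counted as opposite where both were at least 0.5 in size. A rise that was larger at 24 h was seen in 385 genes (31.4% of those called), with a median response of −0.134 at 6 h and 0.901 at 24 h. A larger fall was seen in 662 genes (53.9%), with medians of 0.192 and −0.868. The genes with a response of smaller size at 24 h had the other sign there, with at least one of the responses under 0.5. In 36 of them (2.93%) a rise at 6 h came with a smaller response at 24 h, with medians of 0.505 and −0.315, and in 9 (0.733%) a fall at 6 h did, with medians of −0.398 and 0.249. In 136 genes the responses were opposite, 106 (8.63%) up at 6 h and down at 24 h and 30 (2.44%) down and then up. The sorting depends on the margin, since most responses at 6 h were small. With no margin, 0 genes had a smaller rise or fall, 695 genes were up and then down and 334 down and then up, and with a margin of 1 these were 8 and 3.

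**Figure D1:**
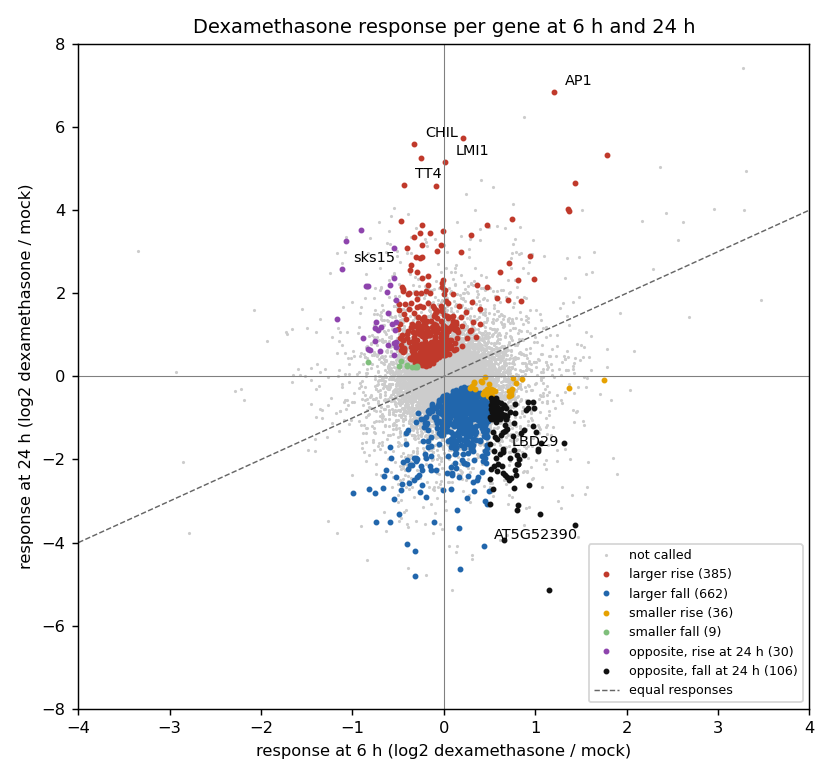
Response of each tested gene to dexamethasone at 6 h (horizontal axis, log2 dexamethasone over mock) and at 24 h (vertical axis, same unit, different scale), with called genes coloured by class and the number in each class in the key. Genes with a group at 0 reads or beyond the axes are not drawn. The 385 genes with a larger rise have a median response of −0.134 at 6 h and 0.901 at 24 h. For the 662 with a larger fall the medians are 0.192 and −0.868. The dashed line marks equal responses.

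A difference between responses can come from the dexamethasone libraries, from the mock libraries or from both. Mock at 24 h differed from mock at 6 h in 4073 genes (19.7% of those tested), and dexamethasone at 24 h from dexamethasone at 6 h in 4742 (22.9%). Among the called genes, 533 differed between the time points in dexamethasone and not in mock, 380 in mock and not in dexamethasone, 301 in both and 14 in neither. The mock level moved more than the dexamethasone level in 505 of the called genes (41.1%), 243 of the 424 with a higher response and 262 of the 804 with a lower one. In the genes with a larger rise the mock level was lower at 24 h by a median of 0.559 on the log2 scale and the dexamethasone level higher by a median of 0.394. In those with a larger fall, the dexamethasone level was lower by a median of 0.757 and the mock level higher by a median of 0.315. The time of treatment and any batch shared by the libraries of a time point cannot be told apart in these shifts, while a shift that mock and dexamethasone share cancels in the difference.

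*AP1* (AT1G69120), which specifies floral meristem and sepal identity, had 21 and 19 reads in 6 h mock and 50 and 57 in 6 h dexamethasone. It had 4 and 1 reads in 24 h mock and 286 and 229 in 24 h dexamethasone. The 24 h dexamethasone libraries were thus far above all others, and the groups did not overlap at either time point. The response was 1.2 at 6 h, where it was not called (adjusted *p* = 0.151), and 6.84 at 24 h, a difference of 5.64 (standard error 0.63, edgeR adjusted *p* = 1.9e-04). It stayed called without each library in turn, from 5.08 to 6.79. The 250 bases before the start of *AP1* are shown because the gene is LFY bound in the peak annotation of the study and has the largest called rise of the flower genes. They lie at chr1:25986350-25986599 on the minus strand of TAIR10 (RefSeq), and the capitals mark a match to CCANTGG, the core of the known LFY binding site, which reads the same on both strands.
AP1: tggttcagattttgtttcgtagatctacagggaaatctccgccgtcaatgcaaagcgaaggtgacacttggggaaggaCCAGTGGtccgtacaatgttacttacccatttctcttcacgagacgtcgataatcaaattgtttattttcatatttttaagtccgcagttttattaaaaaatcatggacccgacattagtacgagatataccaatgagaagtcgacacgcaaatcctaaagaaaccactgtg

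Of 40 genes of flower and inflorescence identity, 23 were tested and 6 were called (26.1%, against 5.94% of all genes tested), 5 with a higher response at 24 h, *LFY* itself among them, and 1 with a lower one. The median difference of the 23 was 0.41, against 0.01 over all genes tested. *LMI1* (AT5G03790), a homeodomain gene, had 29 and 23 reads in 6 h mock and 28 and 33 in 6 h dexamethasone. It had 2 and 5 reads in 24 h mock and 124 and 99 in 24 h dexamethasone. The groups overlapped at 6 h and lay far apart at 24 h, and the difference was 5.14 (standard error 0.67, edgeR adjusted *p* = 5.4e-04). *TEM1* and *TOE1*, repressors of flowering, had differences of 1.00 and 0.85. For *TEM1* the mock level fell from 26.5 and 31.2 CPM at 6 h to 11.1 and 12.5 CPM at 24 h, while dexamethasone gave 34.2 and 32.3 and then 29.3 and 25.0 CPM. *MFT*, of the same protein family as *TFL1*, had a response of −0.19 at 6 h and −1.17 at 24 h, and its difference of −0.97 was the one in the other direction. The *TEM1* call was lost without 6 h dexamethasone B, either 24 h mock library or 24 h dexamethasone A, with an adjusted *p* of at most 0.024.

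*TFL1* (AT5G03840), which keeps inflorescence meristems from becoming flowers, had 0 reads in each of the 4 mock libraries. It had 15 and 22 reads in 6 h dexamethasone, or 0.229 and 0.323 CPM, and 281 and 272 reads in 24 h dexamethasone, or 15.2 and 12 CPM. The dexamethasone libraries were above every mock library at both times, and those at 24 h far above those at 6 h. Against a floor of 3 reads per library in the shallower mock library it was at least 4.12-fold higher at 6 h and at least 85.2-fold higher at 24 h. With both mock groups at 0, the difference between responses could not be fitted. Other members did not pass the threshold. *SEP2* had responses of 1.64 and 2.98 (adjusted *p* of the difference 0.41), and *SMZ* of 0.18 and 2.43 (adjusted *p* = 0.0124).

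Axillary meristem and boundary genes were called in 3 of 15 tested (20%, against 5.94% of all genes tested), all 3 with a higher response at 24 h (against 2.05%), and the median difference of the 15 was 0.90. *RAX1*, a MYB gene that starts axillary meristems, gave 3.33 and 2.5 CPM in 6 h mock and 7.59 and 7.31 CPM in 6 h dexamethasone, then 0.762 and 1.55 CPM in 24 h mock and 19.4 and 17.7 CPM in 24 h dexamethasone. Its groups did not overlap at either time, with the mock lower and the dexamethasone higher at 24 h, and the difference was 2.67 (standard error 0.34, edgeR adjusted *p* = 4.0e-04). *CUC2*, a boundary gene of the NAC family, gave 1.04, 0.951, 2.01 and 1.81 CPM in the 6 h mock and dexamethasone libraries and 2.73, 2.07, 20.7 and 15.1 CPM in those at 24 h, a difference of 1.95 (standard error 0.32, adjusted *p* = 0.0024). The call of *CUC2* was lost without 6 h dexamethasone B, 24 h mock B or 24 h dexamethasone A, with an adjusted *p* of at most 0.0163. *LSH1* had responses of 0.70 and 1.84, a difference of 1.14. *LSH2*, with at most 50 reads in any library, had a difference of 5.37 that was not called (adjusted *p* = 0.0337).

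**Figure D2:**
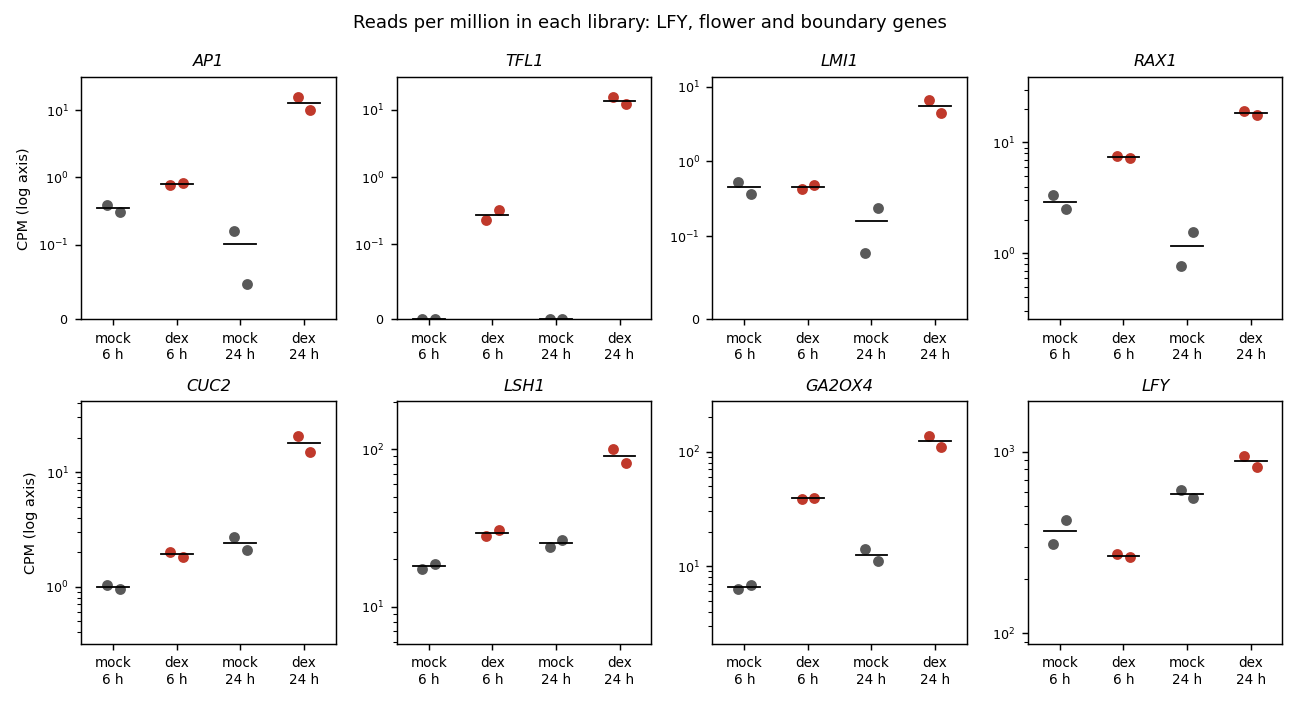
Normalised counts (CPM, log axis; for *AP1*, *TFL1* and *LMI1* linear below 0.1) in each of the 8 libraries for 8 genes, with grey points for mock, red points for dexamethasone (A left, B right) and a line for the mean of 2. *AP1* and *LMI1* rise far above all other groups in 24 h dexamethasone only. *TFL1* has 0 reads in the 4 mock libraries, and *GA2OX4* is raised at both time points. *LFY* is below mock at 6 h, where its response was not called, and above it at 24 h.

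Genes of gibberellin metabolism differed in direction. *GA20OX1*, an enzyme of gibberellin synthesis, gave 2.81 and 2.87 CPM in 6 h mock, 4.18 and 4.57 CPM in 6 h dexamethasone, 4.57 and 3.62 CPM in 24 h mock and 25.9 and 21.1 CPM in 24 h dexamethasone. Only the 24 h dexamethasone libraries were clearly raised, and the difference was 1.89 (standard error 0.23, edgeR adjusted *p* = 3.7e-04). *GA3OX2*, of the last step of synthesis, had responses of −0.53 and 1.11, which are opposite, and a difference of 1.64 that was lost without 24 h mock B (adjusted *p* = 0.0112). Of the genes that inactivate gibberellin, *GA2OX2* had a higher response at 24 h, by 0.86, and *GA2OX6* a lower one, by −1.35. *GA2OX4* gave 6.30 and 6.87 CPM in 6 h mock, 38.4 and 39.6 CPM in 6 h dexamethasone, 14.0 and 11.1 CPM in 24 h mock and 137 and 111 CPM in 24 h dexamethasone. Its groups did not overlap at either time. It rose by 2.57 at 6 h and 3.29 at 24 h, both called, and the difference of 0.73 (standard error 0.18) was not called (adjusted *p* = 0.0209). Over all 18 genes of synthesis and sensing tested, 2 were called (11.1%), both higher, and of 6 genes of inactivation 1 was called in each direction (33.3%), against 5.94% of all genes tested.

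Of 942 LFY bound genes (first round of peak annotation in the study, taken as a list of names), 853 were tested and 115, or 13.5%, were called, 52 higher and 63 lower, against 5.94% of all genes tested. Without 6 h mock A 261 of them were called, without B 205, and without any 1 of the others between 61 and 67. By class, 50 had a larger rise, 53 a larger fall, 4 a smaller rise and 8 opposite responses. In a window from 250 bases before to 50 bases after the start of a gene (RefSeq, TAIR10.1), CCANTGG occurred in 831 of 20543 genes tested, or 4.05%. It occurred in 18 of the 424 genes called higher (4.25%), in 18 of the 804 called lower (2.24%), in 51 of 852 LFY bound genes (5.99%), in 7 of the 52 LFY bound genes called higher (13.5%) and in 2 of the 63 called lower (3.2%). With the 250 bases before the start alone, these last shares were 9.62% and 3.2%, against 3.24% of all genes. In the study, peaks upstream of a gene or within it were assigned to that gene. Sites bound by LFY can thus lie outside both windows, and the study found the consensus motif under most LFY peak summits.

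The 9 matches in called LFY bound genes are few enough to be shown, each with 10 bases on either side and the match in capitals, read on the strand of the gene. They lay between 172 bases before the start, in *AP1*, and 15 bases after it, in *GAE6*. The first 7 belong to genes with a higher response at 24 h and the last 2 to genes with a lower one.
AP1: tggggaaggaCCAGTGGtccgtacaat
TLP8: cgcacaatccCCAATGGctattcaaat
LSH1: cccactttaaCCATTGGtcacactctc
HB40: taaatcacgtCCAGTGGtaattccgta
GAE6: taagaagtctCCAATGGagaacaatct
PME3: cttatataacCCAGTGGaacgtttttt
CRK2: aattattagtCCACTGGtttttaggtt
HAE: tggagagtgaCCATTGGtccattctgt
AT1G69030: acaaaattatCCATTGGccaataggaa
These genes were named by the match and not by the size of their difference. *LSH1*, with the match 41 bases before its start, gave 17 and 18.7 CPM in 6 h mock, 28.2 and 30.6 CPM in 6 h dexamethasone, 24.0 and 26.6 CPM in 24 h mock and 101 and 81.2 CPM in 24 h dexamethasone. The homeodomain gene *HB40* had responses of 0.32 and 1.3 and a difference of 0.97. *HAE*, a receptor kinase of floral organ abscission, had responses of 0.12 and −0.62 and a difference of −0.73.

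Flavonoid synthesis had the most called genes of the lists with a higher response. Flavonoids are pigments and antioxidants made from phenylpropanoids by chalcone synthase and the enzymes that follow it. Of 24 genes, 17 were tested and 11 were called (64.7%, against 5.94% of all genes tested), all 11 with a higher response at 24 h (against 2.05%), by 1.47 to 5.91. The other 7, *F3H*, *DFR* and *LDOX* among them, had too few reads to be tested. The median difference of the 17 was 1.89, from a median response of −0.22 at 6 h and 1.90 at 24 h, against 0.01 over all genes tested. Under every alternative, including each library left out, between 10 and 12 genes were called.

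*TT4* (AT5G13930, chromosome 5, 4488476 to 4490264), chalcone synthase, gave 21.1 and 29.3 CPM in 6 h mock, 18.0 and 19.2 CPM in 6 h dexamethasone, 35.4 and 28.3 CPM in 24 h mock and 828 and 720 CPM in 24 h dexamethasone. The 6 other libraries lay close together, and the 24 h dexamethasone libraries were more than an order of magnitude above them. The response was −0.44 at 6 h, where it was not called, and 4.60 at 24 h, a difference of 5.04 (standard error 0.21, edgeR adjusted *p* = 2.6e-07). *CHIL* (AT5G05270), which helps chalcone isomerase, had 46, 45, 35 and 49 reads in the 6 h libraries (mock A and B, dexamethasone A and B), 20 and 10 in 24 h mock and 632 and 645 in 24 h dexamethasone, a difference of 5.91 (standard error 0.37). *FLS1* (AT5G08640), flavonol synthase, gave between 2.98 and 3.69 CPM at 6 h, 1.68 and 1.83 CPM in 24 h mock and 68.4 and 65.5 CPM in 24 h dexamethasone, a difference of 5.50 (standard error 0.17). *CHIL* had the largest called difference of the genes named here, and all 3 stayed called without each library.

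Of the other enzymes, 5 were called and 1, *UGT75C1*, was tested and not called. *TT5*, chalcone isomerase, had a difference of 4.2, and *TT7*, flavonoid 3′-hydroxylase, of 3.03. The flavonol glycosyltransferases *UGT78D1* and *UGT78D2* had 1.89 and 1.8, and *UGT84A2*, a sinapate glucosyltransferase, 1.96. Among regulators, *MYB12*, an activator of flavonol genes, gave 5.87 and 7.30 CPM in 6 h mock, 5.74 and 5.26 CPM in 6 h dexamethasone, 2.97 and 1.97 CPM in 24 h mock and 26.9 and 27.6 CPM in 24 h dexamethasone, a difference of 3.71 (standard error 0.25). Its relative *MYB11* had 1.55, and *HY5*, a bZIP regulator of light responses and of *MYB12*, had 1.47. For *HY5* the 24 h mock libraries were low, at 14.0 and 12.8 CPM, against 30.7 and 33.7 CPM in 24 h dexamethasone and between 21.0 and 27.7 CPM at 6 h. The anthocyanin regulators *PAP1* (2.42, adjusted *p* = 0.0486) and *GL3* (1.88, adjusted *p* = 0.0165) were not called, nor were *EGL3*, *TTG1*, *PAP2* and the anthocyanin glucosyltransferase *UGT75C1*.

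Promoters of *TT4* and *CHIL* are shown because *TT4* is the entry enzyme of the pathway and *CHIL* had the largest difference of the list, and because the motif CACGTG, the G-box bound by bZIP proteins such as HY5, occurs in both. The motif reads the same on both strands, is in capitals, and was searched for after the values were seen. The 250 bases before *TT4* lie at chr5:4488226-4488475 and those before *CHIL* at chr5:1563036-1563285, both on the plus strand of TAIR10.1 (RefSeq).
TT4: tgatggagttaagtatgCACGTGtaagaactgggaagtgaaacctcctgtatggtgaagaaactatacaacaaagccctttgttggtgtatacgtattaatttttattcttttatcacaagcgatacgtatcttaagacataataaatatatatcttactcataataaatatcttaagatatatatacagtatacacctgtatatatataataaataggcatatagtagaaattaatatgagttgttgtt
CHIL: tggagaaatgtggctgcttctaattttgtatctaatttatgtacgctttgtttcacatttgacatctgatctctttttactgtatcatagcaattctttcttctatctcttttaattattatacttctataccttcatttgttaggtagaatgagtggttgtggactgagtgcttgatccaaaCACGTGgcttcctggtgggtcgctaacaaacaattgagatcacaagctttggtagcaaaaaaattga
The match begins 233 bases before the start in *TT4* and 67 bases before it in *CHIL*. In the window from 250 bases before to 50 after the start, CACGTG occurred in 4 of the 11 called flavonoid genes (36.4%), in 14.2% of all genes called higher, in 7.59% of those called lower and in 8.44% of all genes tested. ACCTACC, a MYB motif of phenylpropanoid promoters searched for on both strands, was in 0 of the 11 and in 1.46% of all genes. CCANTGG was in 0 of the 17 flavonoid genes tested.

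**Figure D3:**
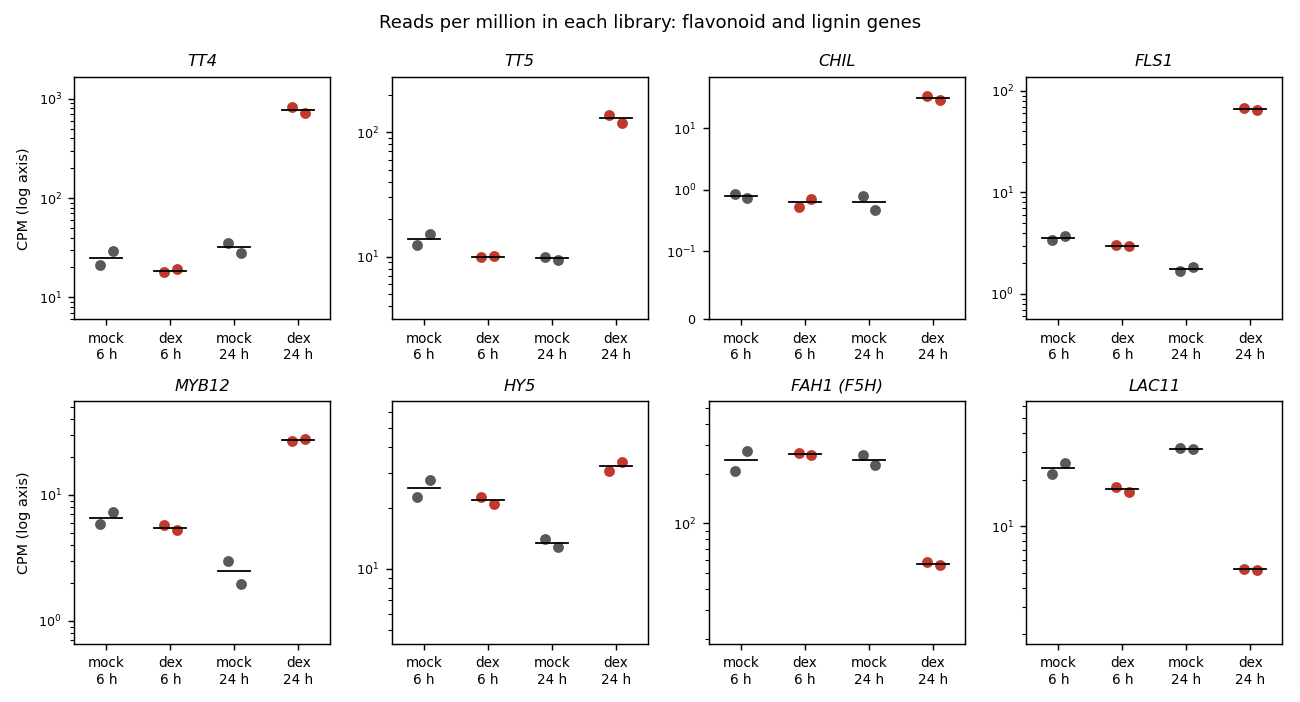
Normalised counts (CPM, log axis; for *CHIL* linear below 0.1) in each of the 8 libraries for 6 flavonoid genes and regulators and 2 lignin genes, with grey points for mock, red points for dexamethasone (A left, B right) and a line for the mean of 2. *TT4* reaches 828 and 720 CPM in 24 h dexamethasone against 35.4 and 28.3 CPM in 24 h mock, while *FAH1* (F5H) and *LAC11* are lowest in that group.

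Phenylpropanoid and lignin genes, whose products share precursors with flavonoids, were called in both directions. Of 23 genes, all tested, 7 were called, 2 higher and 5 lower (30.4%, against 5.94% of all genes tested), and the median difference of the 23 was 0.10, with 15 above 0. Ferulate 5-hydroxylase (*FAH1*, AT4G36220), which directs precursors to syringyl lignin, gave 208 and 273 CPM in 6 h mock, 266 and 258 CPM in 6 h dexamethasone, 259 and 225 CPM in 24 h mock and 58.1 and 56.2 CPM in 24 h dexamethasone. The first 3 groups lay at one level and the last well below it, and the difference was −2.21 (standard error 0.17, edgeR adjusted *p* = 1.3e-05). The laccases *LAC11*, *LAC4* and *LAC17*, which polymerise lignin, had differences of −2.14, −2.06 and −1.85, and *PAL4*, of the first step, of −0.80. *4CL3*, the 4-coumarate CoA ligase of the flavonoid branch, had the largest rise, from between 0.759 and 1.16 CPM at 6 h and 1.00 and 0.893 CPM in 24 h mock to 13.6 and 8.17 CPM in 24 h dexamethasone, a difference of 3.51. The methyltransferase *COMT1* had a difference of 0.60. *LAC4* was no longer called without 24 h dexamethasone B (adjusted *p* = 0.0113).

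Of 22 regulators of callus and lateral roots, all tested, 8 were called (36.4%, against 5.94% of all genes tested), all 8 with a lower response at 24 h (against 3.89%), by −0.48 to −2.48, with a median difference of −0.43 over the 22 and 7 of them above 0. *LBD29* (AT3G58190), an auxin induced LBD gene that can start callus by itself, gave 46.7 and 37.6 CPM in 6 h mock and 64.6 and 64.8 CPM in 6 h dexamethasone. It gave 52.2 and 59.7 CPM in 24 h mock and 14.6 and 16.2 CPM in 24 h dexamethasone. It was above mock at 6 h and far below it at 24 h, without overlap, with responses of 0.62 (not called, adjusted *p* = 0.0212) and −1.86 and a difference of −2.48 (standard error 0.16, edgeR adjusted *p* = 4.5e-06). *PUCHI*, an AP2 gene of early lateral roots, gave 157 and 165 CPM in 6 h mock, 162 and 163 CPM in 6 h dexamethasone, 303 and 302 CPM in 24 h mock and 153 and 158 CPM in 24 h dexamethasone. Here it was the 24 h mock pair that stood above the other 3 groups, and the difference was −0.98 (standard error 0.09). The others were *GATA23* (−1.44), *LBD17* (−1.32), the quiescent centre gene *WOX5* (−0.79), *LBD18* (−0.77), *LBD16* (−0.58) and *PLT7* (−0.48). *PLT1*, *PLT2*, *SCR*, *SHR* and *BBM* were not called, with *PLT1* at 0.46 (adjusted *p* = 0.011). The number called lower was 10 without 6 h mock A or B and 3 or 4 without 1 of the other libraries, and *GATA23* was lost without any 1 of the libraries other than the 6 h mock pair, with an adjusted *p* of at most 0.0269.

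Auxin response genes of the Aux/IAA and GH3 families were called in 9 of 34 tested (26.5%, against 5.94% of all genes tested), 8 lower and 1 higher, with a median difference of −0.50. *GH3.1*, which conjugates auxin to amino acids, gave 185 and 250 CPM in 6 h mock, 223 and 220 CPM in 6 h dexamethasone, 429 and 390 CPM in 24 h mock and 187 and 168 CPM in 24 h dexamethasone. As for *PUCHI*, the 24 h mock libraries were the high ones, and the difference was −1.23 (standard error 0.17, edgeR adjusted *p* = 8.0e-04). It was lost without 24 h mock A or 24 h dexamethasone B (adjusted *p* of at most 0.0127). The Aux/IAA repressors *IAA20*, *IAA11*, *IAA19*, *IAA13* and *IAA1* had differences of −1.17 to −0.59. That of *IAA20* was not called with 1 replicate block over both time points or with counts thinned to the smallest library. With 1 library left out it ranged from −1.38 to −0.98. *GH3.3* was the exception, at 0.82. The number called lower was 20 and 17 without 6 h mock A and B and between 1 and 4 without 1 of the other libraries. Of the auxin transport and synthesis genes, 1 of 22 was called, the influx carrier *LAX3* (−1.35), which gave 176, 179, 213 and 217 CPM at 6 h, 194 and 191 CPM in 24 h mock and 84.4 and 98.0 CPM in 24 h dexamethasone.

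Cytokinin genes were called in 4 of 25 tested (16.0%, against 5.94% of all genes tested), all 4 lower (against 3.89%), with a median difference of −0.63. *LOG5*, which activates cytokinin, had a difference of −1.62, the cytokinin oxidases *CKX1* and *CKX5*, which degrade it, of −1.21 and −0.95, and the response regulator *ARR6* of −0.70. *LOG5* gave 10.3, 9.77, 12.4 and 11.2 CPM in the 6 h libraries, 21.4 and 19.5 CPM in 24 h mock and 9.06 and 6.80 CPM in 24 h dexamethasone. The 24 h mock level of *CKX1* was also above all others, at 15.8 and 15.9 CPM against 4.69 and 5.52 CPM in 24 h dexamethasone. *CKX1*, *CKX5* and *ARR6* overlap genes on the opposite strand, whose reads were not counted separately. *CKX1* and *ARR6* were lost without any 1 of the libraries other than the 6 h mock pair, with an adjusted *p* of at most 0.021 and 0.0555.

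**Figure D4:**
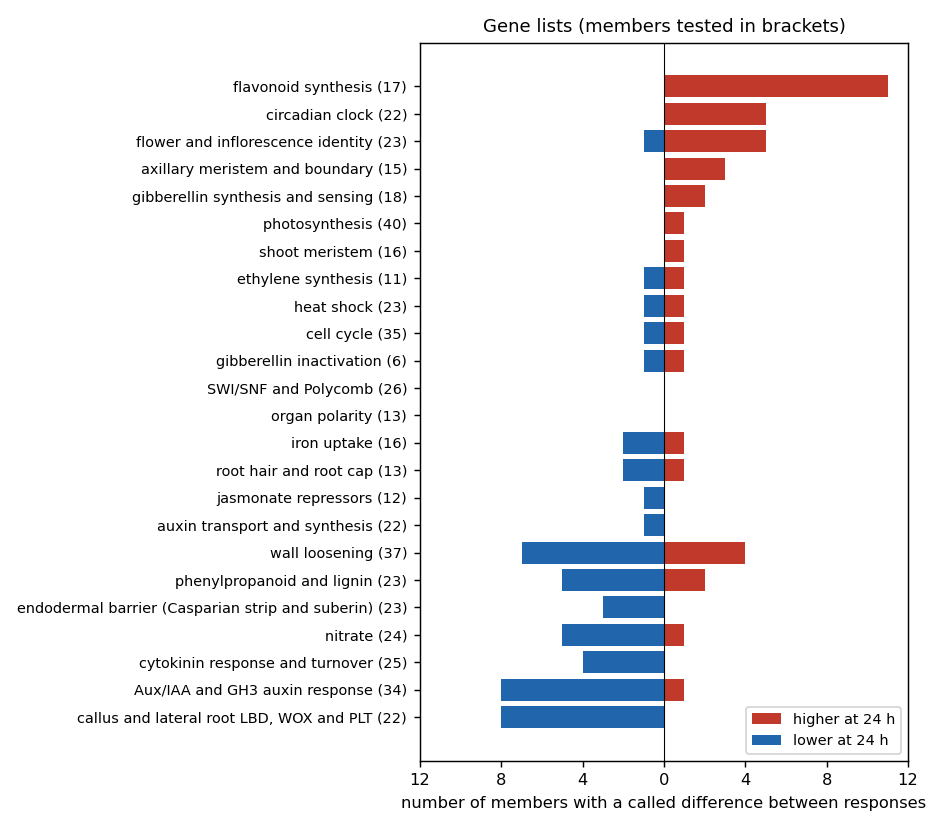
Number of members of each of 24 gene lists with a called difference, to the right (red) for a higher and to the left (blue) for a lower response at 24 h than at 6 h, with the number of members tested in brackets. Flavonoid synthesis has 11 of 17 called higher, and the callus and the auxin response lists have 8 called lower each.

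A set of 20 genes rose at 6 h and fell at 24 h with both responses called. Their responses lay between 0.48 and 1.32 at 6 h and between −2.45 and −0.34 at 24 h. With both responses at least 0.5 in size there were 18, and 3 of the 20 were LFY bound. Since the rule for these genes uses both responses, the directions are a description. The number was 278 and 163 without 6 h mock A and B, and between 1 and 9 without any 1 of the other libraries.

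*ALPHA-VPE*, a vacuolar processing enzyme, gave 36.0 and 39.1 CPM in 6 h mock and 63.2 and 60.5 CPM in 6 h dexamethasone, then 56.9 and 57.2 CPM in 24 h mock and 14.7 and 14.4 CPM in 24 h dexamethasone. The replicates were close in every group, and the difference was −2.69 (standard error 0.11, edgeR adjusted *p* = 1.9e-07). The cysteine proteinases *CEP1* and *CEP2*, known from programmed cell death, had differences of −1.37 and −1.72, and the metacaspase *MC5* of −1.71. *CEP2* gave 216, 227, 412 and 417 CPM in the 6 h libraries, mock first, and 390, 374, 213 and 222 CPM in those at 24 h. Serine carboxypeptidases *scpl20* and *scpl28* had −2.02 and −3.05. Of wall genes, the expansin *EXPB2* gave 72.9 and 81.5 CPM in 6 h mock, 122 and 117 CPM in 6 h dexamethasone, 51.0 and 52.4 CPM in 24 h mock and 12 and 11.0 CPM in 24 h dexamethasone, a difference of −2.80 (standard error 0.12). The cellulose synthase-like gene *CSLB01* had −2.20 and the polygalacturonase gene listed as *PGAZAT* −1.37. *FRD3*, a citrate transporter of the xylem, gave 26.8, 27.6, 41.0 and 40.3 CPM at 6 h and 86.6, 84.6, 17.1 and 18.3 CPM at 24 h, a difference of −2.85. For this gene the 24 h mock libraries were the highest of the 8 and the 24 h dexamethasone libraries the lowest. The genes in this paragraph were chosen after their values were seen.

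**Figure D5:**
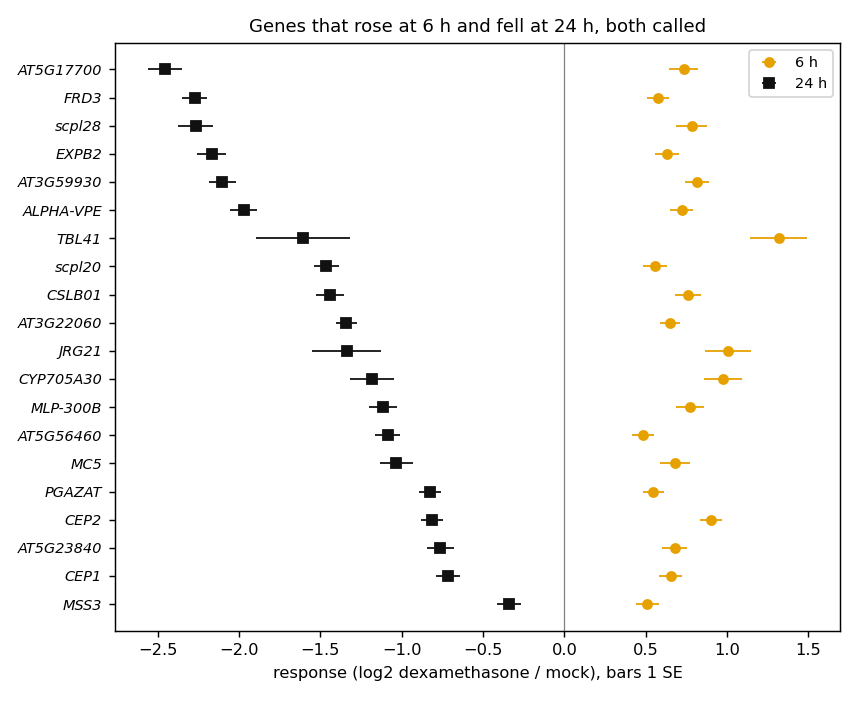
Response to dexamethasone (log2 dexamethasone over mock, horizontal axis) at 6 h (orange circles) and 24 h (black squares) for the 20 genes with a called rise at 6 h and a called fall at 24 h, with bars of 1 standard error. All circles lie right of 0, from 0.48 to 1.32, and all squares left of it, from −2.45 to −0.34.

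Outside this set, the 5 largest opposite differences with a fall at 24 h were in genes whose response at 6 h was not called, among those averaging 50 reads or more. AT2G43860, a pectin lyase-like protein, gave 12.2, 11.1, 21.0 and 19.6 CPM in the 6 h libraries, mock first, 10.1 and 9.21 CPM in 24 h mock and 0.809 and 1.24 CPM in 24 h dexamethasone. It was higher than mock at 6 h and nearly silent at 24 h, a difference of −4.02 (standard error 0.23). AT3G57620, related to glyoxal oxidase, had −3.9, AT1G23510 −3.58 and AT4G26830, a glycosyl hydrolase of family 17, −3.56. The lipase-like AT2G24560 had 68, 80, 154 and 115 reads at 6 h and 23, 14, 2 and 0 reads at 24 h. Its difference of −4.61 (standard error 0.86) was lost without any of 5 libraries. With 1 library left out it ranged from −8.84 to −3.52. AT1G23510 and AT4G26830 were lost without 24 h dexamethasone B (adjusted *p* = 0.0157 and 0.0129).

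In the other direction, *sks15* (AT4G37160), of a family of extracellular proteins related to multicopper oxidases, was the gene with a called fall at 6 h and a called rise at 24 h. It gave 19.3 and 21.8 CPM in 6 h mock and 9.46 and 9.47 CPM in 6 h dexamethasone, then 2.73 and 2.73 CPM in 24 h mock and 16.9 and 15.8 CPM in 24 h dexamethasone. The mock level fell strongly between the time points while the dexamethasone level did not, and the groups did not overlap at either time. The responses were −1.12 and 2.58, a difference of 3.69 (standard error 0.17, edgeR adjusted *p* = 4.1e-07). AT1G50060, of the CAP superfamily, gave 14.7, 15.5, 10.4 and 10.2 CPM at 6 h, 1.72 and 1.60 CPM in 24 h mock and 15.0 and 13.6 CPM in 24 h dexamethasone, a difference of 3.65. *ADF9*, an actin bundling protein, AT5G48060, a C2 domain protein, and AT3G21351 had 3.02, 2.99 and 2.91. In all 5 the 24 h mock libraries were the lowest of the 8. *ADF9* was lost without any of 5 libraries, with an adjusted *p* of at most 0.0498.

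The largest falls at 24 h were in genes with little response at 6 h. AT5G52390, a PAR1 family protein, gave 127 and 138 CPM in 6 h mock, 180 and 177 CPM in 6 h dexamethasone, 161 and 156 CPM in 24 h mock and 9.01 and 9.62 CPM in 24 h dexamethasone. The last pair was far below the other 6 libraries, and the difference was −4.52 (standard error 0.11, edgeR adjusted *p* = 4.6e-09). AT5G22430, an extensin family protein, had 159, 287, 274 and 299 reads at 6 h, 244 and 208 in 24 h mock and 9 and 7 in 24 h dexamethasone, a difference of −4.81 (standard error 0.40). *HAK5*, a high affinity potassium transporter, had 97 and 49 reads in 24 h mock and 10 and 0 in 24 h dexamethasone, against 195 to 258 at 6 h. Its difference of −3.81 (standard error 0.75) was lost in DESeq2 (adjusted *p* = 0.0832) and without any of 5 libraries, where it ranged from −10.31 to −2.70. The reverse case was AT3G27950, a lipase-like protein with 137, 162, 144 and 181 reads at 6 h, 0 and 4 in 24 h mock and 56 and 31 in 24 h dexamethasone. Its difference of 4.67 reflects a mock level near 0, and it was lost without any of 4 libraries. With 1 library left out it ranged from 3.58 to 9.68.

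Genes with the same direction at both times and a stronger rise at 24 h were few among those called at 6 h. *ASN1*, asparagine synthetase, known to be induced by low sugar and darkness, gave 9.09 and 10.7 CPM in 6 h mock, 25.2 and 26.1 CPM in 6 h dexamethasone, 4.29 and 2.87 CPM in 24 h mock and 55.8 and 59.1 CPM in 24 h dexamethasone. It rose at both times without overlap, by 1.37 and 3.99, and the difference was 2.62 (standard error 0.20, edgeR adjusted *p* = 1.3e-05). *SUC1*, a sucrose transporter, had responses of 0.72 and 2.73 and a difference of 2.02, and AT1G73600 had 0.98 and 2.35 and a difference of 1.37. These 3 were all that were called at 6 h, at 24 h and for a larger rise.

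The genes with a response of smaller size at 24 h all had the other sign there. AT1G63580, a receptor kinase-related protein, gave 1.41 and 1.5 CPM in 6 h mock, 4.89 and 4.90 CPM in 6 h dexamethasone, 3.93 and 5.83 CPM in 24 h mock and 5.45 and 3.80 CPM in 24 h dexamethasone. It rose at 6 h by 1.75, the groups overlapped at 24 h, and the difference was −1.83 (standard error 0.34, edgeR adjusted *p* = 0.0047). It was lost without any of 4 libraries, with an adjusted *p* of at most 0.0271. *JAZ10*, a repressor of jasmonate signalling, gave 8.91, 8.82, 14.2 and 15.4 CPM at 6 h and 12.6, 10.6, 8.25 and 8.83 CPM at 24 h, a difference of −1.18 that was lost without 6 h dexamethasone B (adjusted *p* = 0.0116). It was the 1 called gene of 12 jasmonate repressors (8.33%, against 5.94% of all genes tested), whose median difference was 0.01. The 9 genes with a smaller fall had no called response at either time. The largest, the glycosyl hydrolase AT5G42720, gave 11.4 and 15.0 CPM in 6 h mock, 7.39 and 7.46 CPM in 6 h dexamethasone and between 9.12 and 12.7 CPM at 24 h, a difference of 1.17 that was lost without any 1 of the libraries other than the 6 h mock pair (adjusted *p* of at most 0.031).

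Of the 41 genes called at 6 h, 14 had no called difference. The serpin AT2G26390 gave 1.87 and 1.68 CPM in 6 h mock, 8.99 and 8.40 CPM in 6 h dexamethasone, 3.29 and 3.9 CPM in 24 h mock and 21.3 and 21.5 CPM in 24 h dexamethasone. It rose by 2.29 and 2.58, and the difference of 0.28 had a standard error of 0.21 (edgeR adjusted *p* = 0.442). *EFE*, an ACC oxidase of ethylene synthesis, rose by 1.27 and 1.65, and the transcription factor *BHLH32* by 0.72 and 0.80. *CYP71A13*, of camalexin synthesis, fell by 2.79 at 6 h and by 3.77 at 24 h on the log2 scale, with 0.305 and 0.294 CPM in 6 h dexamethasone and 0.0539 and 0.221 CPM in 24 h dexamethasone. *MYB4*, a repressor of phenylpropanoid genes, had 0.66 and 0.30, of which the response at 24 h was not called (adjusted *p* = 0.0216). Its difference was −0.37 (adjusted *p* = 0.0423). These 5, chosen after their values were seen, and *GA2OX4* kept their direction at both times, which does not show that their responses were equal.

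Genes of nitrate and nitrogen use were called in 6 of 24 tested (25.0%, against 5.94% of all genes tested), 5 lower and 1 higher. Nitrate reductase *NIA1* gave 978 and 1257 CPM in 6 h mock, 1201 and 1192 CPM in 6 h dexamethasone, 1868 and 1796 CPM in 24 h mock and 724 and 676 CPM in 24 h dexamethasone. It overlapped at 6 h, and at 24 h the mock libraries were the highest and the dexamethasone libraries the lowest of the 8, a difference of −1.49 (standard error 0.15, edgeR adjusted *p* = 1.2e-04). Nitrite reductase *NIR1* had −0.82, the glutamine synthetase *GLN1;4* −1.28, the nitrate transporter *NRT1.8* −1.04 and the regulator *TGA1* −0.85. The transporter *NRT2.6* had a difference of 2.93 on between 8 and 62 reads, which was lost without any 1 of the libraries other than the 6 h mock pair (adjusted *p* of at most 0.0435). In iron uptake, 3 of 16 were called (18.8%), the transporter *OPT3* higher (1.49) and the reductase *FRO3* and AT3G13610, of coumarin synthesis, lower (−0.85 each). With 1 library left out the differences of *FRO3* and AT3G13610 ranged from −0.95 to −0.75 and from −0.96 to −0.75. That of AT3G13610 was not called with all 12 libraries in 1 fit.

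Wall loosening genes were called in 11 of 37 tested (29.7%, against 5.94% of all genes tested), 4 higher and 7 lower (against 2.05% and 3.89%). All 4 called higher were xyloglucan endotransglucosylases. *XTH9* gave 51.9 and 52.2 CPM in 6 h mock, 45.2 and 47.2 CPM in 6 h dexamethasone, 11.9 and 12.6 CPM in 24 h mock and 46.0 and 37.1 CPM in 24 h dexamethasone, a difference of 1.93 (standard error 0.14, edgeR adjusted *p* = 1.1e-05). The 24 h mock pair was the low one and the dexamethasone level hardly moved. *XTH15* had 1.95, *XTH33* 1.38 and *XTH7*, with opposite responses, 2.55. The lower ones were 5 expansins, *EXPA14* (−1.67), *EXPA15* (−1.23), *EXPA1* (−1.01), *EXPA10* (−0.60) and *EXPA4* (−0.58), with *XTH19* (−1.22) and *XTH4* (−0.62). *EXPA14* gave 27.5, 32.5, 26.6 and 25.4 CPM at 6 h, 38.9 and 40.0 CPM in 24 h mock and 10.5 and 10.9 CPM in 24 h dexamethasone. *XTH15* overlaps a gene on the opposite strand, and *XTH7*, with at most 57 reads, was lost without any 1 of the libraries other than the 6 h mock pair (adjusted *p* of at most 0.0536).

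Circadian clock genes were called in 5 of 22 tested (22.7%, against 5.94% of all genes tested), all 5 higher (against 2.05%). *ELF4*, of the evening complex, gave 17.7 and 20.8 CPM in 6 h mock, 16.5 and 17.2 CPM in 6 h dexamethasone, 8.78 and 7.38 CPM in 24 h mock and 34.9 and 32.5 CPM in 24 h dexamethasone, a difference of 2.25 (standard error 0.16, edgeR adjusted *p* = 1.1e-05). Its mock level was lowest and its dexamethasone level highest at 24 h. *FKF1*, *TOC1*, *LUX* and *PRR5*, expressed toward evening, had differences of 1.3, 0.62, 0.61 and 0.56. By the methods of the study all tissue was harvested at ZT 6, so the libraries share the hour of harvest and differ in the hour at which treatment began. *FKF1* was lost without 4 of the libraries and *TOC1* without 3 (adjusted *p* of at most 0.0219 and 0.0127), and *LUX*, which overlaps a gene on the opposite strand, without any 1 of the libraries other than the 6 h mock pair (at most 0.049).

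Of root differentiation genes, the suberin genes *FAR4* (−1.91), *KCS2* (−1.10) and *FACT* (−0.82) were called of 23 genes of the endodermal barrier (13%, against 5.94% of all genes tested), all lower (against 3.89%). *FAR4* gave 221, 186, 282 and 280 CPM at 6 h, 181 and 200 CPM in 24 h mock and 66.4 and 73.1 CPM in 24 h dexamethasone. In the root hair and root cap list, 3 of 13 were called (23.1%), the root cap maturation genes *BRN1* (−1.89) and *BRN2* (−1.67) lower and *FEZ*, which promotes division of root cap stem cells, higher (1.43). *FEZ* was the lowest in 24 h mock, at 4.49 and 4.46 CPM, against 10.2 and 8.12 CPM in 24 h dexamethasone. *KCS2* and *BRN2* were lost without at least 5 of the 8 libraries in turn (adjusted *p* of at most 0.0369 and 0.0352), *FACT* without 6 (0.0256) and *FEZ* without 3 (0.0131).

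Of the remaining lists, ethylene synthesis and heat shock had a larger share called than the 5.94% of all genes tested. Shoot meristem and cell cycle genes were close to that share, and the others were below it. At most 2 members of each list were called. These were 1 of 40 photosynthesis genes, *PSBX* (0.94), 2 of 35 cell cycle genes, *CYCD1;1* (−1.11) and *CYCA2;3* (0.54), and 2 of 23 heat shock genes, *HSP17.6II* (1.36) and *HSFB2A* (−0.91). Of 11 ethylene synthesis genes 2 were called, *ACO1* at 1.52 and *ACS6* at −0.73, and of 16 shoot meristem genes 1, *BAM2* (0.59). *ACO1* gave 132, 132, 111 and 117 CPM at 6 h, 31.2 and 29.9 CPM in 24 h mock and 71.6 and 79.3 CPM in 24 h dexamethasone, so its mock level fell more than its dexamethasone level. Of 13 organ polarity genes and 26 SWI/SNF and Polycomb genes, 0 were called by edgeR, with 4 and 2 at an unadjusted *p* under 0.05, and DESeq2 called 0 and 0. The largest differences there were 0.58 for *AS2* and −0.39 for *DRIP2* (adjusted *p* = 0.57 and 0.12). *PSBX*, *CYCA2;3*, *HSFB2A*, *ACS6* and *BAM2* were each lost without any 1 of 6 libraries, with an adjusted *p* of at most 0.0536.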

How the data were processed

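RNA was taken from whole callus and sequenced as single-end reads. The authors trimmed reads with Trimmomatic 0.36, checked them with FastQC 0.11.5, aligned them with STAR (2.5.3a in the submitters' processing notes) to TAIR10 with the Araport11 annotation, and counted reads per gene with HTSeq 0.7.2 without regard to strand. The deposited files hold these raw counts per gene and library. Reads from overlapping genes on opposite strands cannot be told apart, nor can *LFY* reads from those of the transgene.

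Rows of reads without a gene were dropped. Of all reads in a library, 1.04% to 2.83% had no feature and 6.9% to 22.2% did not align uniquely. The latter share was 14.2% and 15.5% in 6 h mock and 12.8% and 11.5% in 6 h dexamethasone. At 24 h it was 22.2% and 13% in mock and 11.7% and 6.9% in dexamethasone. Its part in the results was not tested. Genes were filtered with filterByExpr over the 4 groups, normalised by TMM and fitted with edgeR 4.0.16 (limma 3.58.1, R 4.3.3) by glmQLFit over all 8 libraries with 1 coefficient per group and no replicate term. The difference was tested as a contrast, with Benjamini-Hochberg adjustment over all genes tested and a threshold of 0.01. Standard errors are the log2 value divided by the root of F. CPM values were scaled by the TMM library sizes. Adjusted *p* values without a tool named are edgeR's. The threshold follows the methods of the study, which used pairwise DESeq2. With 2 replicates a group, the p-values measure the spread between these samples, pooled for each gene over the 4 groups and moderated across genes. The spread of the 6 h mock pair thus also enters the test of the response at 24 h. The letters A and B did not pair libraries, since deviations from the group means correlated between −0.122 and 0.0247.

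The genes named in the text were AP1, RAX1, TFL1, GA2OX4, LSH2, ACT7 and LFY, up to 5 called genes of each class with the largest difference and a mean of at least 50 counts, and up to 4 called members of each list with the largest difference, or the largest uncalled member where none was called. Others were chosen after their values were seen, among them further list members, genes that rose and then fell and those called at 6 h. The genes, lists and tests were chosen with earlier results of these data known. Of 651 symbols in the lists, 639 matched a gene. Promoter sequences are from RefSeq (TAIR10.1). Alternatives were other size factors, filters and fits, thinned counts, DESeq2 1.42.0 and each library left out. The test was also run on simulated counts, whose outcome is not given here. These had 1 spread per gene for all 4 groups. They cannot show how the test behaves where the spread differs between groups, as for the 6 h mock pair.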

Additional observations from a re-analysis of the deposited data

Results flagged for a closer look

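The results below are listed because the response to the same treatment differed between the 2 time points by a test of the difference itself. This held for 1228 genes, 424 with a higher and 804 with a lower response at 24 h. Among them 20 genes rose at 6 h and fell at 24 h with both responses called. Of the genes with opposite responses, those with the largest differences and a fall at 24 h were AT2G24560 (−4.61), AT2G43860 (−4.02), AT3G57620 (−3.90), AT1G23510 (−3.58) and AT4G26830 (−3.56). Those with a rise at 24 h were *sks15* (3.69), AT1G50060 (3.65), *ADF9* (3.02), AT5G48060 (2.99) and AT3G21351 (2.91). In the latter 5 the 24 h mock libraries were the lowest of the 8. With 2 libraries a group, no single library could be tested as standing apart from its group.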

How the results depend on the processing

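No called difference changed sign under any alternative, and between 10 and 12 flavonoid genes were called higher under each. Without a filter on low counts, 2358 genes were called (917 higher, 1441 lower), with 674 responses at 6 h, 3003 at 24 h, 186 genes that rose and then fell, 16 Aux/IAA and GH3 genes called lower and 201 LFY bound genes. With all 12 libraries in 1 fit these last 3 were 12, 5 and 76, with 24 responses at 6 h and 5 callus genes called lower. DESeq2 called 675 genes higher, 260 responses at 6 h, 92 genes that rose and then fell and 13 Aux/IAA and GH3 genes lower. An adjusted *p* under 0.05 gave 2449 genes (996 higher, 1453 lower), and a difference of at least 1 gave 715 (227 and 488). With no margin for opposite signs, 90 genes had a larger rise, 109 a larger fall, 0 a smaller rise, 0 a smaller fall, and 334 and 695 opposite responses with a rise and a fall at 24 h. With a margin of 1 the opposite ones were 3 and 8. The cause of these shifts was not tested.

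Leaving out each library in turn gave 613 to 3585 called genes (178 to 1763 higher, 435 to 1822 lower), 4 to 2841 responses at 6 h, 770 to 3499 at 24 h, 1 to 278 genes that rose and then fell, 1 to 20 Aux/IAA and GH3 genes lower, 3 to 10 callus genes lower and 61 to 261 LFY bound genes. The high ends came without a 6 h mock library. Of 87 named genes with a called difference, 41 were called without each library in turn.

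With the letter as a replicate block within each time point, 1297 genes were called, with 67 responses at 6 h. With 1 replicate block over both time points, 964 genes were called, with 14 responses at 6 h, 7 genes that rose and then fell and 5 callus genes lower.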

Other observations

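Gene families were counted by the product names in the annotation, and were chosen after the values were seen. Of 45 tested pectin lyase-like genes, which include polygalacturonases, 14 (31.1%) were called, all 14 with a lower response at 24 h, against 5.94% of all genes tested. Of 18 expansins 6 were called (33.3%) and of 14 laccases 4 (28.6%), all lower. The NAC domain family had 17 of 87 called (19.5%), 14 lower and 3 higher. The WRKY family had 10 of 59 called (16.9%), 8 lower and 2 higher. Among UDP-glycosyltransferases 16 of 90 were called (17.8%), 11 of them higher. Of 9 genes related to *SKU5*, 4 were called higher and 1 lower (55.6% called). Of 313 ribosomal protein genes 1 was called (0.319%). Over all genes tested, 2.05% were called higher and 3.89% lower. Of 27 serine carboxypeptidase-like genes 6 were called (22.2%), 4 of which had opposite responses. Of 24 cysteine proteinases 4 were called (16.7%), of which 3 had opposite responses. Over all called genes, 8.63% had opposite responses with a fall at 24 h and 2.44% with a rise.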
